A study of Mus musculus with 3 samples.

Results

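The genes described here are 10 core genes of smooth muscle contraction, Myh11, Acta2, Tagln, Cnn1, Smtn, Lmod1, Myl9, Mylk, Des and Myocd. They were taken by symbol from single-cell RNA-seq count matrices of mouse femoral artery, and all 10 were found among the 32285 genes listed. Levels were not used to choose them. Arteries from sham-operated animals (Sham) were compared with wire-injured arteries at 2 days (D2) and at 7 days (D7); the wire strips the endothelium and stretches the wall. All mice were wild type, and the labels describe them as males aged 8 weeks; no harvest time after the sham operation is given. Each group was 1 library of live sorted single cells pooled from 6 mice, so no test between groups was possible, and the intervals below are 95% intervals that cover counting error only.

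Smooth muscle cells of the arterial media shorten when myosin, built from heavy chains such as that of Myh11 and light chains such as that of Myl9, pulls on actin filaments rich in the alpha-actin made from Acta2. Calcium entry activates the kinase encoded by Mylk, which phosphorylates the light chain, while calponin (Cnn1), transgelin (Tagln), smoothelin (Smtn), leiomodin (Lmod1) and desmin (Des) bind or organise the filaments. Myocardin (Myocd) is a coactivator of serum response factor, which binds CArG boxes near many of these genes. Contractile genes are known to be turned down in smooth muscle cells that dedifferentiate after injury, and Acta2 and Tagln are known to be turned on in myofibroblasts.

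The 3 libraries held 7757, 11690 and 11574 barcodes and 39756684, 98260210 and 100571340 UMIs (unique molecules counted) for Sham, D2 and D7. After filters on cells and on likely doublets, 7329, 10988 and 10852 cells remained, with median depths of 4077, 6625.5 and 6721.5 UMIs. The Sham library was thus the shallowest. Between 21 and 29 cell barcodes were shared by any pair of libraries.

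Cells were clustered with the 10 genes left out, and classes were named from other markers, so that the genes described did not choose their own cells. The smooth muscle-like class held 122 cells in Sham (1.66% of cells), 3 at D2 and 61 at D7 (0.562%), with median depths of 4102, 6693 and 3913 UMIs. All 18 smooth muscle markers, none of them a gene described here, lay above their library-wide level in this class in both Sham and D7. These markers named the class, so this was built in. In both libraries 11 of 14 pericyte markers and all 10 markers shared by mural cells lay above that level too. The largest subcluster, with 78 cells, was named on a mean marker score of 0.126 for smooth muscle against 0.107 for pericytes. The pericyte-like class, led by Vstm4, Steap4, Higd1b and Ednrb in its main subcluster, held 20, 9 and 137 cells. Its other subcluster, numbered 3, held 2, 1 and 41 of these cells. That subcluster was led by Cxcl10, Frmd5 and Il6, with no pericyte marker in its top 10 genes, so the make-up of the class differed between libraries. The fibroblast-like class held 3840, 112 and 3095 cells with median depths of 1810.5, 8437 and 11852 UMIs. A further pair of mural subclusters, numbered 4 and 5, passed no naming rule and is described by number: it held 3, 2 and 76 cells, and its leading genes were Spp1, Prc1, Hmga2, Cthrc1 and Col1a1 (cluster 4) and Ccl5, Timp1, Aldh1a3 and Fbln2 (cluster 5). Mural cluster 6, with 6, 2 and 24 cells, was led by the myeloid and antigen-presentation genes Lyz2, Cd74 and H2-Aa and was also left unnamed.

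In the GENCODE vM21 annotation of mm10, the myosin heavy chain gene Myh11 lies at chr16:14194535-14291372 and the kinase gene Mylk at chr16:34745210-35002420. Acta2 lies at chr19:34241090-34255590, Tagln at chr9:45929619-45936058, Cnn1 at chr9:22099216-22109630 and Smtn at chr11:3517523-3540612. Lmod1 lies at chr1:135324807-135368065, Myl9 at chr2:156775420-156781658, Des at chr1:75360329-75368579 and Myocd at chr11:65176561-65269989. Tagln, Smtn, Lmod1, Mylk and Des each overlap at least 1 gene on the opposite strand. The strand setting of the authors' counting, and the treatment of reads that match several genes (the coding sequence of Acta2 is close to those of Actg2, Acta1 and Actc1), are not given in the sources used here.

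Promoters of 7 of the 10 genes matched the RefSeq promoter table (GRCm38.p6). They were searched over the 250 bases before the start for the CArG box, which is CC, then 6 bases of A or T, then GG, and reads the same on both strands. With at most 1 of the inner bases other than A or T, 2 of the 7 promoters held it, those of Acta2 and Myl9, with 2 matches each, against 8.59% of all 32851 promoters in the table. A match with every inner base A or T was found in 1 of the 7, that of Myl9, against 1.47% of all promoters. The matches are shown because the D7 to Sham ratios of Acta2 and Myl9 differed in size in the fibroblast-like cells described further on. Capitals mark the box, and each run reads 5′ to 3′ on the gene's strand with 30 bases in all.
Acta2, chr19:34255438-34255467, minus strand, box beginning 84 bases before the start: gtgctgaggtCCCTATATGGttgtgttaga
Acta2, chr19:34255388-34255417, minus strand, box beginning 34 bases before the start: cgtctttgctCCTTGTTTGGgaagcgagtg
Myl9, chr2:156775293-156775322, plus strand, box beginning 161 bases before the start: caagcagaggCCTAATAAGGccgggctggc
Myl9, chr2:156775355-156775384, plus strand, box beginning 99 bases before the start: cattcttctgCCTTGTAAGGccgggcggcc
The Acta2 stretches lie inside an annotated GENCODE exon of that gene, since the RefSeq start lies further in, and the Myl9 stretches lie upstream of the annotated gene. A match is a description of letters and not of a bound site.

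Over whole libraries, contractile RNA was far lower at D2 than in Sham, and at D7 that of Acta2 was close to its Sham level while lying in other cells. Levels are given in CPM, the usual depth-scaled count (the gene's UMIs relative to all UMIs of a library or class), and where 3 values follow each other they belong to Sham, D2 and D7 in that order. Acta2 stood at 288.9, 35.3 and 280.3 CPM. Myh11 stood at 63.6, 0.977 and 21.8 CPM and Myocd, the coactivator, at 6.55, 0.0549 and 4.42 CPM. All 10 genes were lowest at D2; D7 was below Sham for 9 of them, and for Des it was above, at 6.03, 1.35 and 8.65 CPM. In such library sums, fewer cells of a type and less RNA per cell cannot be told apart.

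In Sham the smooth muscle-like cells held 84.2% of all Acta2 UMIs, 87.1% of those of Myh11, 89.0% of those of Cnn1 and 87.1% of those of Myocd. At D7 the same class held 18.1%, 33.5%, 35.5% and 21.1% of them. Clusters 4 and 5, almost absent from Sham, held 40.0% of Acta2, 47.6% of Cnn1 and 54.4% of Myocd UMIs at D7, the largest share of any class for each of these genes. Pericyte-like cells held 46.6% of Des UMIs at D7, and fibroblast-like cells held 65.0% of those of Smtn and 36.9% of those of Mylk. Smtn was least bound to smooth muscle: already in Sham 36.2% of its UMIs lay in fibroblast-like and 13.9% in smooth muscle-like cells.

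**Figure D1:**
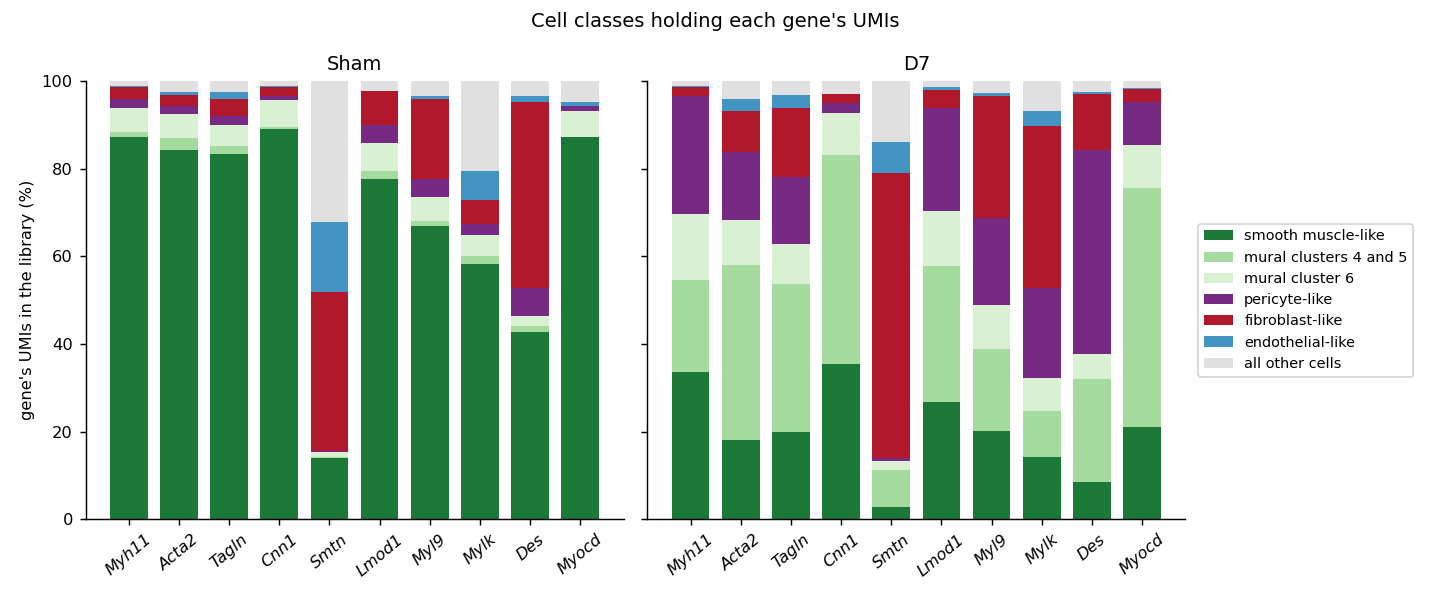
Percent of each gene's UMIs in the library (vertical axis) held by each cell class, for the 10 genes (horizontal axis) in Sham (left) and D7 (right). The smooth muscle-like share of Acta2 is 84.2% in Sham and 18.1% at D7, where clusters 4 and 5 hold 40.0%.

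Within smooth muscle-like cells, 9 of the 10 contractile genes had a lower value at D7 than in Sham, with the lowest ratio for Myh11. Over all genes with enough counts the median log2 ratio was 0.00. Among the 9, Acta2, Tagln, Myl9 and Mylk turned direction under other settings, as given below. The values are those of the summed UMIs of the class in each library. Myh11, the smooth muscle myosin heavy chain, stood at 3509 CPM in Sham and 1994 at D7, a ratio of 0.568 (0.521 to 0.619). Cnn1, the actin-binding protein calponin, stood at 1581 and 1079 CPM, a ratio of 0.682 (0.604 to 0.770). Myocd stood at 361.9 and 255.3 CPM, a ratio of 0.706 (0.545 to 0.907). The heavy chain, calponin and the coactivator had the lowest ratios of the 10.

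The filament genes with the highest counts differed less. Acta2 stood at 15418.5 CPM in Sham and 13856.5 at D7, a ratio of 0.899 (0.868 to 0.931), and Tagln at 12855 and 11432 CPM, a ratio of 0.889 (0.856 to 0.924). Myl9, the regulatory light chain, stood at 3277 and 2697 CPM (0.823, 0.761 to 0.890), and Lmod1, which nucleates actin filaments, at 648.7 and 510.7 CPM (0.787, 0.656 to 0.942). For 3 genes the interval of the ratio included 1. These were Mylk at 1879 and 1761 CPM (0.937, 0.848 to 1.04), Smtn at 165.1 and 117.6 CPM (0.712, 0.483 to 1.04) and the intermediate filament gene Des at 163.4 and 200.8 CPM (1.23, 0.891 to 1.69). Des was the only one of the 10 with a higher value at D7. Under the other settings tried, Myh11, Cnn1, Lmod1, Smtn and Myocd were lower at D7 in each, with log2 ratios for Myh11 from -1.16 to -0.49. The direction turned under at least 1 setting for Acta2 (log2 ratio -0.15, and up to 0.07 with finer clusters), Tagln (-0.17, up to 0.13), Myl9 (-0.28, up to 0.05), Mylk (-0.09, up to 0.08) and Des (0.30, down to -0.13 in subcluster 1 alone), so no direction is given for these.

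The 3 smooth muscle-like cells at D2 held 302 UMIs of Acta2, 163 of Tagln, 32 of Myl9, 20 of Cnn1, 16 of Mylk, 13 of Myh11 and 6 of Lmod1. Smtn had 2, Des 1 and Myocd 0. The exact Poisson interval of that count of 0 reaches up to 242 CPM, and no comparison with D2 was made in this class.

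None of the 10 genes passed a 2-fold difference between D7 and Sham in this class, against 9.71% of 3490 genes with enough counts (5.19% higher, 4.53% lower). The median log2 ratio of the 10 was -0.31, against 0.00 over the 3490 genes. Markers of other cell types differed in this comparison too. The summed level of 14 pericyte markers in the smooth muscle-like class was 2303 CPM in Sham and 5259 at D7, that of 14 fibroblast markers 5066 and 13317, and that of 11 endothelial markers 167 and 594. Most of the gap in the pericyte sum lay in Rgs5, whose levels are given further on. The summed level of the 18 smooth muscle markers was 7956 and 6739 CPM. Their part in the lower contractile levels was not tested.

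**Figure D2:**
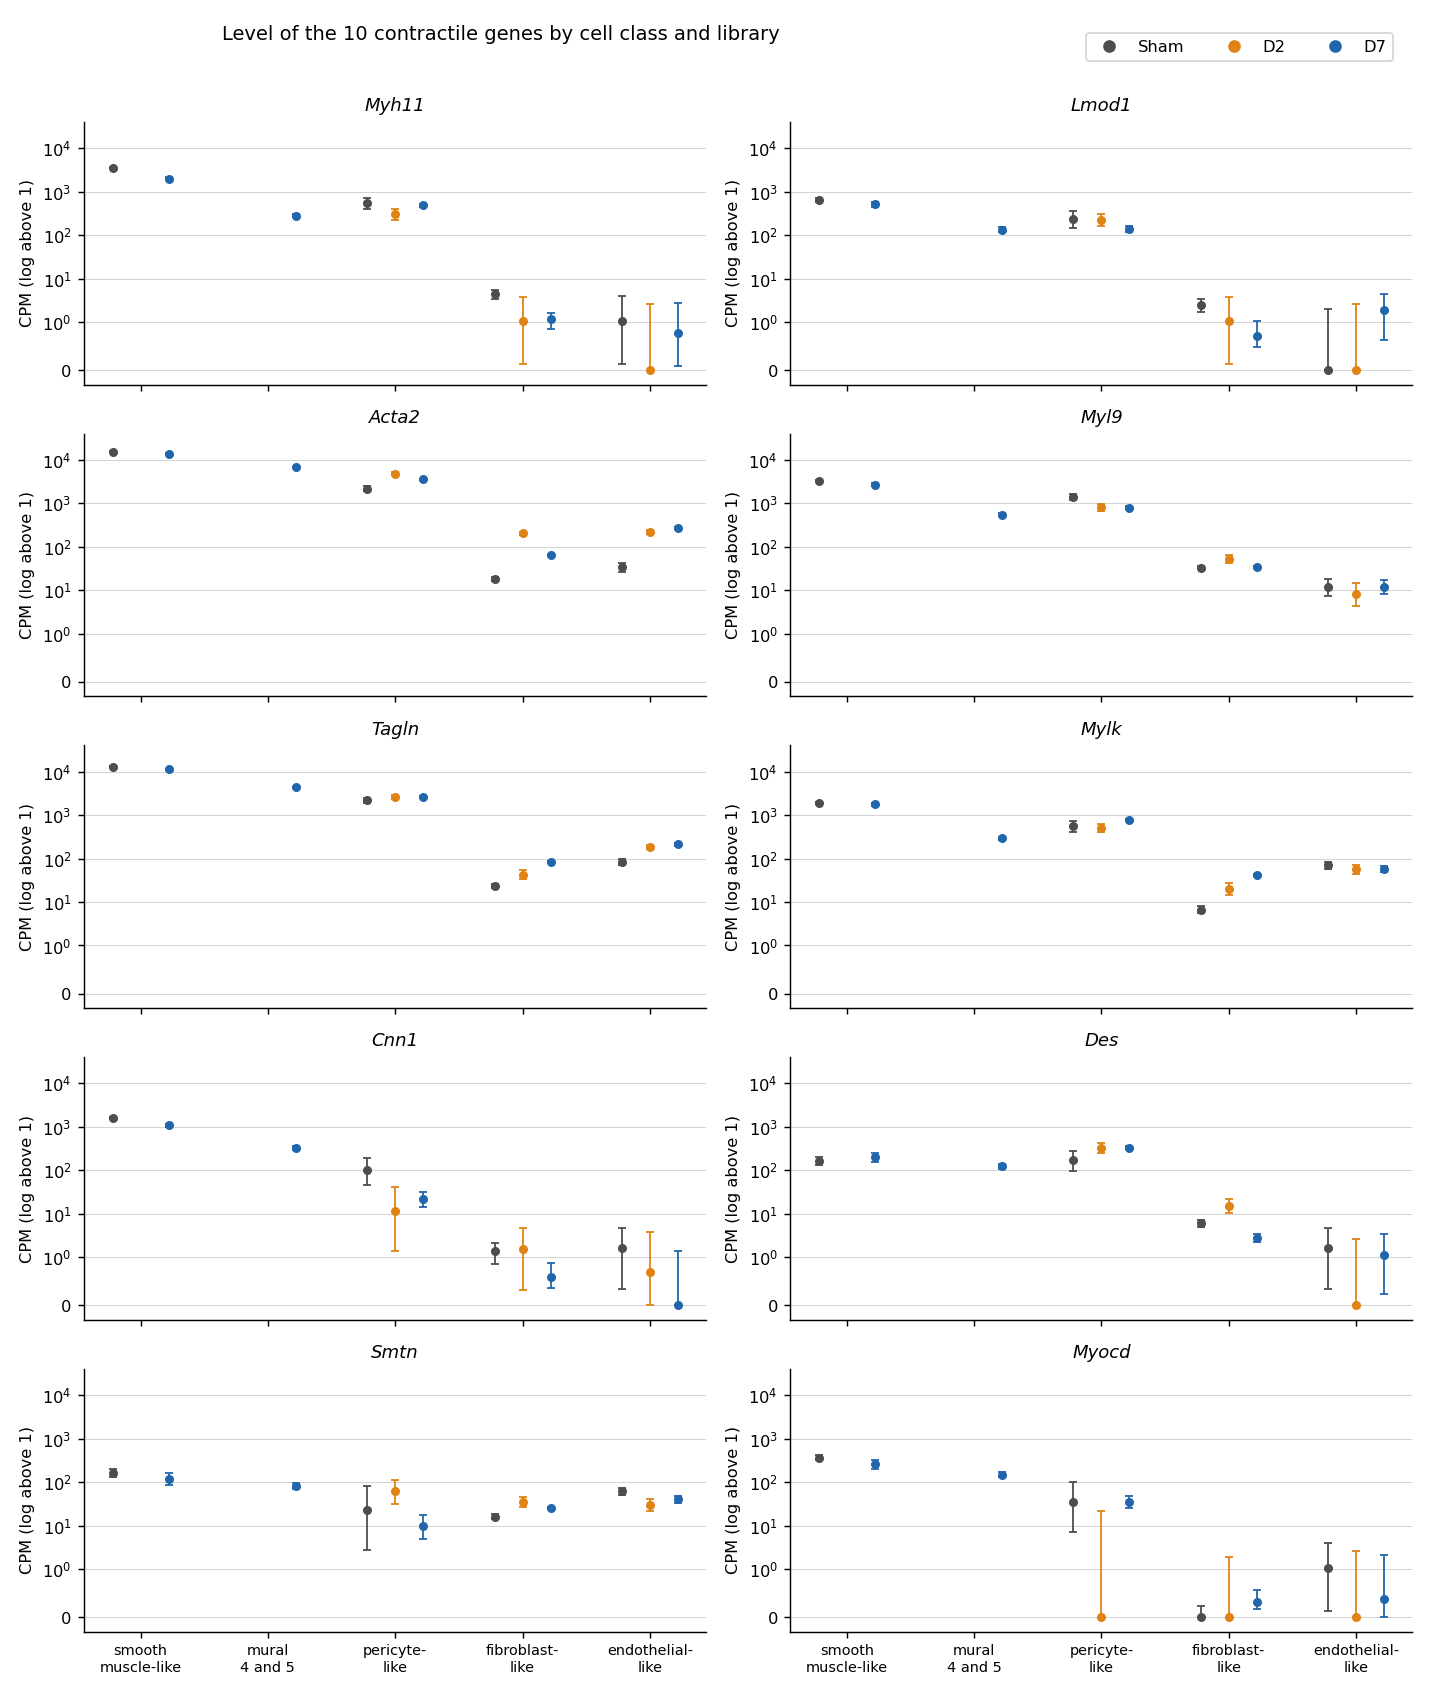
Level of each gene (vertical axis, CPM, logarithmic above 1 and linear below) in 5 cell classes (horizontal axis) for Sham, D2 and D7, shown where a class held at least 9 cells of a library; points are CPM of summed UMIs and bars are exact Poisson intervals. In Sham and D7 smooth muscle-like cells lie highest for 9 genes, and Des lies highest in pericyte-like cells in D7 (334 CPM).

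The smooth muscle-like class was made of 4 subclusters, and the lower Myh11 was not equal among them. Subcluster 1, led by Pcdh9 with no marker of the class in its top 10 genes, held the most cells in both libraries (47 and 30). There Myh11 stood at 3513 CPM in Sham and 1566 at D7, a log2 ratio of -1.16, but the subcluster held under 50 cells in each library and was not held to the 2-fold rule. Subcluster 2, led by Actc1 and with Actg2 and the Schwann marker S100b among its top 10 genes (33 and 19 cells), had Myh11 at 2976 and 2707 CPM. Subcluster 8, led by Hpse2, Ryr2 and Itga8 (15 and 10 cells), had 4345 and 2929 CPM. The direction was thus the same in these 3 subclusters, with the smallest gap in subcluster 2.

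Subclusters also differed in the make-up of the contractile set. Subcluster 7, marked by Tesc, Pcp4l1 and Pln, was shallow (median 990 UMIs) and almost confined to Sham, with 27 cells against 2 at D7. In Sham it had the highest Tagln of the 4, at 33360.5 CPM against 8869 in subcluster 1, the highest Myl9, at 9315 CPM, and the highest Des, at 553 CPM, but the lowest Myh11, at 1601 CPM. Myocd was lowest in subclusters 2 and 7 in Sham, at 118 and 116 CPM against 476 in subcluster 1. At D7 no Myocd UMI was found in subcluster 2. Acta2 was highest in subcluster 2 in both libraries, at 21519 and 22896 CPM.

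**Figure D3:**
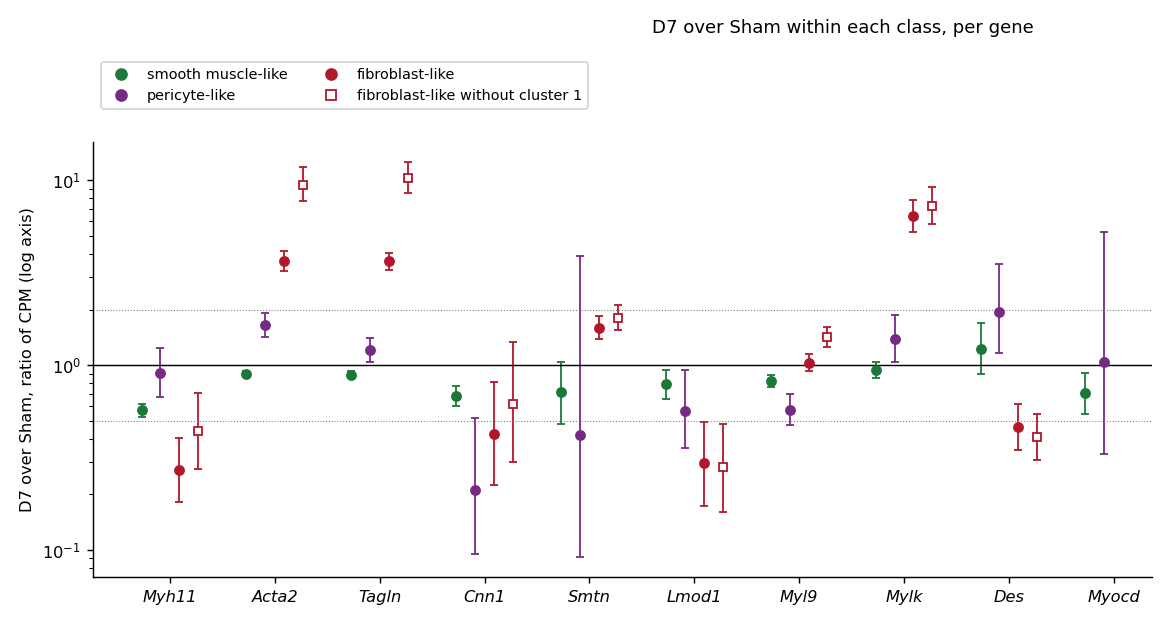
Ratio of D7 over Sham CPM (vertical axis, logarithmic) for each gene (horizontal axis) in smooth muscle-like, pericyte-like and fibroblast-like cells, with the fibroblast-like cells also without their shallow cluster 1 (open squares); bars are exact counting intervals, dotted lines mark 2-fold, and the fibroblast-like ratio of Myocd is not drawn because Sham had no UMI. Smooth muscle-like ratios lie between 0.568 (Myh11) and 1.23 (Des), and the fibroblast-like ratios of Acta2, Tagln and Mylk lie above 3.

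Most smooth muscle-like cells carried several of the genes at once. To compare cells of unequal depth, each was thinned to 1000 UMIs, which left 105 Sham and 55 D7 cells. The median cell then had a UMI of 6 of the 10 genes in both libraries (8 in both without thinning). At least 5 genes were found in 91.4% of Sham cells (84.4 to 96.0) and 89.1% of D7 cells (77.8 to 95.9), and at least 7 in 40.0% (30.6 to 50.02) and 27.3% (16.1 to 41.0). The intervals overlapped in both cases. As a measure of free RNA in droplets, 98.2% of B-like cells in Sham and 97.8% at D7 had none of the 10 genes at this depth (93.9% and 94.9% unthinned, with median depths of 4114.5 and 3501 UMIs).

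Single genes followed their levels. At 1000 UMIs, Acta2 was found in 99.0% of Sham and 100% of D7 smooth muscle-like cells (99.2% and 100% unthinned), and Tagln in 96.2% and 96.4% (100% and 98.4%). Myh11 was found in 87.6% and 78.2% (92.6% and 90.2%) and Cnn1 in 67.6% and 63.6% (86.1% and 80.3%). The rarer transcripts of Myocd were found in 21.9% and 23.6% (51.6% and 49.2%) and those of Smtn in 12.4% and 7.27% (35.2% and 32.8%). At this depth the share of a low gene mainly follows its level, so a cell without Myocd or Smtn is not shown to lack it.

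The pair of Myh11 and Cnn1 met about as often as its single shares give. Myh11 and Cnn1 were found together in 61.9% of Sham smooth muscle-like cells at 1000 UMIs, where the product of their shares was 59.2%, and in 52.7% at D7, where the product was 49.8%. Myh11 and Des met in a share below the product in Sham, but the interval of that share includes the product. Only 13 cells had no Myh11 UMI at this depth, so the contrast that follows rests on few cells. Des was found in a smaller share of the cells with Myh11 (12 of 92) than of the cells without it (7 of 13). The pair was found in 11.4% of cells (6.05 to 19.1) against a product of 15.9%. In the class sums, the shallow subcluster 7 also had the highest Des and the lowest Myh11 of the Sham subclusters.

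**Figure D4:**
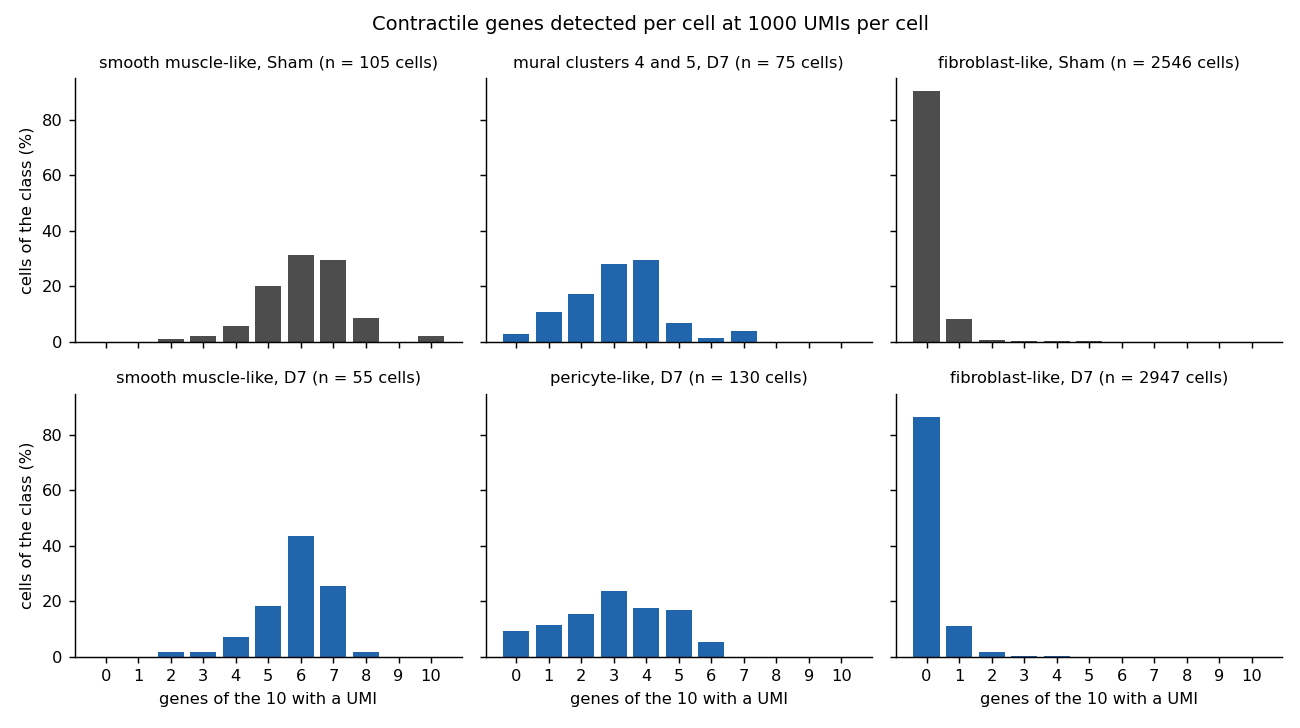
Percent of cells (vertical axis) by the number of the 10 genes with a UMI (horizontal axis) after thinning each cell to 1000 UMIs, in 6 groups of cells with their number. The median is 6 genes in smooth muscle-like cells of Sham and D7 and 3 in D7 pericyte-like cells and clusters 4 and 5, and most fibroblast-like cells have none.

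Pericytes wrap capillaries and small vessels and are known to carry part of the contractile set. For most of the genes the pericyte-like class lay between the smooth muscle-like and the fibroblast-like class. At D7 the exceptions were Des, higher than in smooth muscle-like cells, and Smtn, at 9.56 CPM below the 25.7 CPM of fibroblast-like cells. Acta2 stood at 2183, 4812 and 3597 CPM, Tagln at 2194, 2582 and 2652 CPM, and Myh11 at 537, 300 and 484 CPM. Des stood at 171, 334 and 334 CPM. Cnn1 was low throughout, at 103, 11.5 and 21.7 CPM, and Myocd stood at 34.3, 0 and 35.6 CPM from 3, 0 and 41 UMIs.

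The Sham and D2 pericyte-like groups held only 20 and 9 cells, too few for the 2-fold rule used elsewhere. The D7 to Sham ratio was 1.65 for Acta2 (1.43 to 1.92), 1.95 for Des (1.17 to 3.51), 0.570 for Myl9 (0.472 to 0.694) and 0.211 for Cnn1 (0.0954 to 0.515). The Sham Cnn1 level rests on very few cells. It came from 3 UMIs in 5.56% of the 18 cells of subcluster 0 and 6 UMIs in 50% of the 2 cells of subcluster 3. The interval of the Cnn1 ratio does not cover this. The median log2 ratio of the 10 genes was -0.05. In Sham, 5 cells held 79.6% of the Acta2 UMIs of the class, and the direction of Acta2 turned with the processing: its log2 ratio was 0.72, but -0.36 with a stricter filter on cells, -0.31 with finer clusters and -0.07 as a mean over cells. Tagln (0.27, down to -0.76), Myh11 (-0.15, up to 0.66) and Myocd (0.05, down to -1.13) turned likewise, and no direction is given for these 4 genes in this class. Subcluster 0, which held most of the class, had Acta2 at 1242 CPM in Sham and 3511 at D7 (18 and 96 cells).

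At D7, smooth muscle-like and pericyte-like cells (61 and 137) could be set against each other within 1 library. Of the 10 genes, 9 were at least 2-fold higher in smooth muscle-like cells and none lower, against 6.54% higher and 13.1% lower (19.6% in either direction) among 3855 genes. The median log2 ratio of the 10 was 1.99, against -0.19 over those genes. The widest gaps were those of Cnn1 (49.6-fold, 33.1 to 77.7), Smtn (12.3-fold, 6.21 to 26.5) and Myocd (7.16-fold, 4.90 to 10.6). Tagln was 4.31-fold, Myh11 4.12-fold, Acta2 3.85-fold, Lmod1 3.77-fold, Myl9 3.36-fold and Mylk 2.28-fold higher. Des went the other way, at a ratio of 0.602 (0.459 to 0.778). In Sham, with 20 pericyte-like cells, Cnn1 was 15.4-fold (8.06 to 33.7) and Acta2 7.06-fold (6.12 to 8.20) higher in smooth muscle-like cells, while the ratio of Des was 0.953 (0.551 to 1.77). There the pericyte-like Cnn1 UMIs lay in very few cells.

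At 1000 UMIs the median D7 pericyte-like cell had 3 of the 10 genes, and 22.3% of 130 cells had at least 5 (15.5 to 30.4; 78.1% unthinned, at a median depth of 8330 UMIs). No cell had a Cnn1 UMI at this depth, so none had both Myh11 and Cnn1, while unthinned 13 of 137 cells (9.49%, 5.15 to 15.7) had a Cnn1 UMI. Acta2 and Tagln were found together in 55.4% of them (46.4 to 64.1), above the product of their shares of 42.1%. Tagln was found in 80.0% of cells with Acta2 and in 17.5% of cells without it. Co-detection of this pair was thus uneven among pericyte-like cells.

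Summed together, clusters 4 and 5 carried the set in other proportions than smooth muscle-like cells of D7. In this sum Myh11 and Mylk lay furthest below those cells. Cluster 4 was the deeper at D7, with a median of 28692 UMIs per cell against 4887 in cluster 5, so the sum mainly follows cluster 4. At D7 their 76 cells had Acta2 at 6843 CPM, Tagln at 4337, Cnn1 at 324, Myocd at 147, Myl9 at 552, Mylk at 293, Myh11 at 280, Lmod1 at 133, Des at 124 and Smtn at 81.4 CPM. Their median depth was 16019.5 UMIs. The 18 smooth muscle markers summed to 1713 CPM there, the 14 pericyte markers to 681 and the 14 fibroblast markers to 14365, while monocyte and macrophage markers summed to 154 CPM.

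Against these cells, 7 of the 10 genes were at least 2-fold higher in smooth muscle-like cells of D7 and none lower, against 15.5% higher and 15.6% lower (31.1% in all) among 3622 genes. The median log2 ratio was 1.57, against -0.10. Myh11 was 7.12-fold (6.31 to 8.04), Mylk 6.01-fold (5.32 to 6.80) and Myl9 4.88-fold (4.45 to 5.36) higher. In the pooled sum the myosin and light chain kinase genes thus showed the widest gaps. Acta2 was 2.02-fold higher (1.96 to 2.10). Myocd (1.74-fold), Des (1.62-fold) and Smtn (1.45-fold, 0.991 to 2.07) did not reach 2-fold. Against pericyte-like cells of D7, clusters 4 and 5 were higher in Cnn1 (14.9-fold), Smtn (8.51-fold), Myocd (4.12-fold) and Acta2 (1.90-fold), and lower in Mylk and Des, where pericyte-like cells were 2.64-fold and 2.70-fold higher. Smooth muscle-like cells were higher than pericyte-like cells in Cnn1 and Myocd too.

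The pair of clusters was not uniform. At D7, Mylk stood at 321 CPM in cluster 4 and 103 in cluster 5, Lmod1 at 150 and 14.7, Myocd at 158 and 68.8, and Des at 78.1 and 427 CPM (41 and 35 cells). Smtn stood at 92.9 CPM in cluster 4 and, from 1 UMI, at 4.91 CPM in cluster 5, so its pooled ratios above follow cluster 4. In cluster 5, Lmod1 and Smtn lay further below smooth muscle-like cells than Myh11 and Mylk did, and the Smtn value was not above that of pericyte-like cells. Acta2 stood at 6696 and 7824 CPM. At 1000 UMIs the median cell of the pair had 3 of the 10 genes, and 12% of 75 cells had at least 5 (5.64 to 21.6; 69.7% unthinned). Acta2 and Tagln were found together in 73.3% of them (61.9 to 82.9), but Myh11 was found in only 21.3% and Cnn1 in 26.7%. Of the 16 cells with Myh11 and the 20 with Cnn1, 3 were the same, where the product of the shares gave 5.69% of cells and 4% was found.

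Fibroblasts of the adventitia are known to gain Acta2 when they become myofibroblasts. Relative to all its UMIs the fibroblast-like class had very little of the contractile set in Sham and more of a few of its genes after injury. Acta2 stood at 18.0, 202 and 65.7 CPM, Tagln at 23.1, 42.9 and 84.2 CPM and Mylk at 6.67, 20.4 and 42.6 CPM. Their peak differed: Acta2 was highest at D2, Tagln and Mylk at D7. Smtn stood at 16.1, 35 and 25.7 CPM and Myl9 at 33.2, 52.8 and 34.3 CPM. The other 5 genes stood lower than these in each library, with Des at 6.04, 15.2 and 2.79, Myh11 at 4.30, 1.05 and 1.17, Lmod1 at 2.43, 1.05 and 0.717, and Cnn1 at 1.37, 1.57 and 0.584 CPM. No Myocd UMI was found in Sham or D2 fibroblast-like cells, and 12 were found at D7.

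D7 over Sham, the ratio was 3.65 for Acta2 (3.23 to 4.13), 3.64 for Tagln (3.27 to 4.07), 6.39 for Mylk (5.26 to 7.85), 1.60 for Smtn (1.39 to 1.84) and 1.03 for Myl9 (0.933 to 1.15). It was 0.272 for Myh11, 0.295 for Lmod1, 0.426 for Cnn1 and 0.461 for Des. The free RNA share of this class, estimated from neutrophil and B cell genes, was 2.26% of the library level in Sham and 5.49% at D7. At D7, Myh11 and Cnn1 lay near that share of their library levels of 21.8 and 11.1 CPM. Myocd, with 12 UMIs at D7 and 0 in Sham, was 1.71-fold higher when set against a floor of 3 UMIs over the Sham class, which is not a lower bound. Without the shallow cluster 1 described below, the counting interval of its ratio began at 1.02. Its D7 level of 0.319 CPM was not far above the free RNA share of its library level of 4.42 CPM. Acta2 and Tagln were the 2 genes of the 10 with enough counts for the 2-fold rule, and both were higher, against 7.46% higher and 10.3% lower among 3753 genes. The median log2 ratio of the 10 was 0.22, against -0.05; it was -0.13 as a mean over cells and 1.82 with finer clusters, so it gives no direction for the set. D2 over Sham, the ratio was 11.2 for Acta2 (9.63 to 13.1), 3.06 for Mylk, 2.51 for Des, 2.18 for Smtn, 1.86 for Tagln and 1.59 for Myl9. There 1 of the 2 genes with enough counts was at least 2-fold higher, against 13.9% of 3989 genes, and 5 of the 112 cells held 48.8% of the Acta2 UMIs. D7 over D2, Acta2 was lower, at 0.324 (0.291 to 0.362), the 1 gene past 2-fold of 3 with enough counts, against 6.07% lower and 6.66% higher among 3709 genes; Tagln was at 1.96 (1.58 to 2.48).

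Different clusters made up the fibroblast-like class in each library, and this touched the ratios. In Sham the shallow cluster 1 (median 875 UMIs) held 55.4% of the cells of the class and 67.1% of its Acta2 UMIs, at 80.0 CPM, while the Pi16-marked cluster 11 and the Inmt-marked cluster 14 had 3.64 and 8.21 CPM. At D7 cluster 0, led by Cthrc1, Mfap4 and Col1a1, held 84.6% of the cells and 99.3% of the Acta2 UMIs, at 70.4 CPM, and cluster 1 had 10.1 CPM. Without cluster 1, Acta2 stood at 6.97, 201 and 66.3 CPM and the D7 to Sham ratio was 9.50 (7.74 to 11.8), that of Tagln 10.3 (8.56 to 12.6) and that of Mylk 7.30 (5.83 to 9.26). Myl9 then stood at 24.2, 48.4 and 34.4 CPM, with a D7 to Sham ratio of 1.42 (1.26 to 1.61). Also without cluster 1, the D2 to Sham ratio of Acta2 was 28.9 (23.0 to 36.5) and that of Tagln 3.93 (2.82 to 5.42). The Sham Acta2 level of 6.97 CPM, on which these Acta2 ratios rest, lay near the free RNA share of 2.26% of its library level of 288.9 CPM. The summed level of the 18 smooth muscle markers in the class was 202, 45 and 47.4 CPM; its part in the Sham values was not tested.

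The size of the D7 difference also turned on how cells were weighted and grouped. As a mean over cells of each cell's CPM, the log2 ratio of Acta2 was 0.23 and that of Tagln 0.03, and neither passed 2-fold; in that mean the shallow Sham cells weigh as much as the deep ones. With finer clusters (resolution 2), at which no mural subcluster was led by Spp1 or Ccl5 and the fibroblast-like class held 3153 D7 cells, the log2 ratio was 3.78 for Acta2 and 3.13 for Tagln. Myh11, Cnn1 and Lmod1 then turned from lower to higher, with log2 ratios of 1.23, 2.41 and 1.05. No direction is given for these 3 genes. As a mean over cells Smtn (-0.04) and Myl9 (-0.86) had negative log2 ratios for D7 over Sham, and Smtn (-0.22) for D2 over Sham. The log2 ratio of Mylk lay between 1.66 and 2.84 under the settings tried.

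Counted by cell, the share with Acta2 was higher after injury, by an amount that turned on depth and on cluster 1. Acta2 was found in 2.50%, 31.3% and 18.2% of Sham, D2 and D7 fibroblast-like cells, but these had median depths of 1810.5, 8437 and 11852 UMIs. At 1000 UMIs the shares were 1.57%, 8.65% and 3.26%. Cluster 1 held 34 of the 40 Sham cells with Acta2, and without it the shares at that depth were 0.351% (6 of 1708 cells, 0.129 to 0.763), 9.88% (8 of 81, 4.36 to 18.5) and 3.44% (96 of 2794, 2.79 to 4.18). In B-like cells, whose median depths were 4114.5, 4565.5 and 3501 UMIs, the share with Acta2 was 0.358%, 0% and 1.18% at 1000 UMIs (2.50%, 0.270% and 2.47% unthinned). Tagln was found in 1.77%, 3.85% and 3.33% of fibroblast-like cells at 1000 UMIs (2.99%, 14.3% and 14.4% unthinned) and Mylk in 0.943%, 1.92% and 3.60% (2.21%, 17.0% and 26.8%). With cluster 1 included, Myl9 went the other way between Sham and D7 at 1000 UMIs, at 4.56%, 5.77% and 3.22% (11.1%, 37.5% and 22.6% unthinned). Its class sum without cluster 1 was higher at D7 than in Sham, as given above.

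At 1000 UMIs, Acta2 and Tagln were found in the same fibroblast-like cell in like shares in Sham and at D7, in cells of different clusters; at 2000 UMIs the shares were unequal, at 0.271% and 2.36%. At 1000 UMIs both were found in 27 of 2546 Sham cells (1.06%, 0.700 to 1.54) and in 31 of 2947 D7 cells (1.05%, 0.716 to 1.49). At D2 they were found in 2 of 104 cells (1.92%, 0.234 to 6.77). Unthinned, the shares were 1.12%, 11.6% and 7.14%. Thinning to 2000 UMIs leaves out more of the shallow cluster 1, and without that cluster the Sham share at 1000 UMIs was 0.117%. Of the 27 Sham cells, 25 were in cluster 1, and all 31 of the D7 cells were in cluster 0. The products of the single shares were 0.0278%, 0.333% and 0.108%, so the pair met more often than its single shares give in Sham and at D7.

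Over the whole class, the pair was tighter in Sham. Cluster 1 held 34 of the 40 Sham cells with Acta2 at 1000 UMIs and 25 of those with both genes. Outside it only 6 Sham cells had Acta2, and 1 cell each of clusters 11 and 14 had both. These are too few to set against D7, so the gap below is not shown outside cluster 1. Tagln was found in 67.5% of Sham cells with Acta2 (50.9 to 81.4) and in 0.718% of those without, and at D7 in 32.3% (23.1 to 42.6) and 2.35%. Myh11 and Acta2 were found together in 13 Sham cells and in none of the 2947 D7 cells at 1000 UMIs (23 and 12 cells unthinned). Cells with at least 5 of the 10 genes numbered 13, 6 and 56 in Sham, D2 and D7 unthinned, and 7, 0 and 0 at 1000 UMIs. All 7 were in cluster 1, and the 56 D7 cells were all in cluster 0. Among cells with Acta2 at this depth, Myh11 was found in 32.5% of the 40 Sham cells and in none of the 96 D7 cells.

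Of the 16 genes of the myofibroblast list, 12 were found more often and 4 less often in D7 cells with Acta2 than in those without. The share of all genes found more often in cells with Acta2 was not calculated, so these counts have no yardstick. All 96 cells with Acta2 lay in cluster 0, while those without it also came from the other clusters. Intervals overlapped for Cdh11, Lrrc15, Fn1, Lox, Tgfb1i1, Fhl2 and the 4 found less often. At 1000 UMIs the 96 D7 fibroblast-like cells with Acta2 had Col8a1, a short-chain collagen, in 31.3% against 8.14% of the 2851 without, Tpm2 (beta-tropomyosin) in 19.8% against 4.67%, and the matrix gene Tnc in 14.6% against 4.14%. The actin crosslinker Actn1 was found in 24.0% against 12.1%, Col12a1 in 20.8% against 8.31% and Cthrc1 in 46.9% against 34.7%. The 4 found less often were Postn, the matrix protein periostin (58.3% and 59.9%), Fap (6.25% and 9.96%), Adam12 (11.5% and 12.8%) and Itga11 (2.08% and 3.93%). In Sham, 7 of the 16 were found more often and 9 less often, and the 40 cells with Acta2 had Tpm2 in 42.5% against 1.12% and Postn in none against 11.8%. The genes named from the list were chosen after their values were seen.

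In endothelial-like cells, which line the vessel and are not contractile, Acta2 RNA was also higher after injury but lay in few cells. Acta2 stood at 33.9, 222 and 272 CPM, and Tagln at 81.8, 185 and 215 CPM. Acta2 at D7 was 8.03-fold (6.20 to 10.6) and Tagln 2.63-fold (2.19 to 3.16) above Sham, and they were the 2 of 4 genes with enough counts that passed 2-fold, against 5.42% higher and 6.63% lower (12% in either direction) among 4166 genes. At D2, 2 of the 4 with enough counts were at least 2-fold higher than in Sham (Acta2 and Tagln) and 1 lower (Smtn), against 10.5% and 10.6% (21.1% in all) of 4250 genes. D7 over D2, none of 3 passed, against 2.17% higher and 1.25% lower (3.42% in all) of 4003 genes. Only 3.87%, 9.89% and 8.90% of the cells had an Acta2 UMI, and the 5 cells with most held 76.2%, 98.7% and 78.2% of them. Myh11 stood at 1.08, 0 and 0.761 CPM and Cnn1 at 1.61, 0.699 and 0 CPM. The 18 smooth muscle markers summed to 283, 259 and 197 CPM and the 14 pericyte markers to 139, 44.7 and 69.7 CPM; their part in the Acta2 level was not tested. Smtn was lower than in Sham at both times, at 61.3, 29.4 and 40.0 CPM, and Mylk stood at 69.4, 56.6 and 58.2 CPM.

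The genes whose level across 32 combinations of class and library was most like the mean of the 10 were Jph2 (Pearson r 0.973), Kcnab1 (0.972), Map3k7cl (0.971), Actg2 (0.963), Unc5c (0.961), Rbpms2 (0.960), Nexn (0.960) and Hspb6 (0.959). Map3k7cl, Actg2 and Rbpms2 were among the markers that named the class, so their likeness was built in. The classes share libraries and depth, and the correlation is a description. Each of the 10 genes is part of that mean, so its own r with it is partly built in; it was lowest for Smtn, at 0.656. Kcnab1, a potassium channel subunit, was at 687 CPM in Sham and 1345 at D7 in smooth muscle-like cells, and Jph2, a junctional membrane protein, at 143 and 120.5 CPM.

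Other genes of the contractile apparatus did not pass 2-fold in smooth muscle-like cells either. Over all 3490 genes with enough counts 5.19% were higher and 4.53% lower, the shares against which these counts are to be read. Of 30 such genes, 29 had enough counts and none was 2-fold higher or lower at D7 than in Sham (median log2 ratio of the list -0.28). Of 24 genes of contraction signalling, channels and receptors, 16 had enough counts and 1 was higher, Rgs5, which is also a pericyte marker (787 and 3044 CPM, 3.87-fold). Of 20 transcriptional regulators, 11 had enough counts and 2 were lower, the zinc finger factor Klf4 (83.4 and 23.0 CPM) and Hey2 (70.0 and 31.6 CPM). Among genes known from modulated smooth muscle, 8 of 15 with enough counts were higher and none lower, among them Ly6a (13.3 and 118 CPM), Col8a1 (25 and 123 CPM) and Lum (51.7 and 221 CPM). Of the myofibroblast list, 6 of 11 were higher and none lower, led by Col12a1 (8.34 and 175 CPM). Fibroblast genes such as Col1a1 (335 and 2045 CPM) and Dcn (510 and 1205 CPM) were higher with them, and the part of fibroblast RNA in these values was not tested.

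In fibroblast-like cells, D7 over Sham, 5 of 20 contractile apparatus genes with enough counts were higher and 1 lower, beside 7.46% and 10.3% of all 3753 genes. Actn1 was 14.8-fold, Tpm2 4.93-fold and Tpm1 3.25-fold higher, and Tns1 was lower, at 0.331. Of the signalling list, 3 of 10 were higher and 1 lower, with the potassium channel gene Kcnma1 at 10.7 and 526 CPM, the endothelin receptor gene Ednra at 16.3 and 83.5 CPM and Pde3a at 117 and 27.5 CPM. Of 9 regulators with enough counts 1 was higher (Gata6, 3.17-fold) and 1 lower (Klf4, at 0.305), shares close to those over all genes. The myofibroblast list was the most one-sided, with 11 of 15 higher and none lower (median log2 ratio 2.23), among them Cthrc1 (2.68 and 798 CPM), Tnc (0.935 and 96.5 CPM) and Cdh11 (19.9 and 399.7 CPM). At D2, 10 of 21 contractile apparatus genes were higher and 2 lower than in Sham, beside 13.9% and 15.1% of all 3989 genes, with Actn1 at 18.4-fold and Tpm2 at 11.5-fold.

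Against clusters 4 and 5 at D7, smooth muscle-like cells were higher in 22 of 29 contractile apparatus genes with enough counts and lower in 2, beside 15.5% and 15.6% of all genes. Pdlim3 was 11.7-fold and Synpo2 7.69-fold higher, and the fibronectin receptor gene Itga5 was lower, at 0.0772. Of the signalling list 12 of 16 were higher and none lower, with the calcium pump regulator Pln at 26.9-fold and the guanylate cyclase subunits Gucy1a1 and Gucy1b1 at 7.01-fold and 6.18-fold. Of the modulated smooth muscle list 1 of 19 was higher and 11 were lower, led by Spp1 (25.8 CPM in smooth muscle-like cells and 4893 in clusters 4 and 5). Spp1, Col1a1 and other genes of these lists helped to form the clusters, so their gaps describe the clusters and test nothing. Against pericyte-like cells of D7, 16 of 28 contractile apparatus genes were higher and none lower in smooth muscle-like cells, beside 6.54% and 13.1% of all genes, among them Ldb3 (21.5-fold) and Actg2 (16.1-fold).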

How the data were processed

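Single cells of 3 mouse femoral artery libraries were measured by droplet RNA-seq (Chromium 3' v3). The deposited values are counts of UMIs per gene and cell. Per the submitters' processing notes they used Cell Ranger 7.2.0, Seurat 5.0.1 and mm10, and per the file headers the count matrices were written by cellranger 7.1.0. The strand setting, the use of intron reads and any doublet removal before deposit are not given in the sources used here.

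Cells were left out below 300 genes or 500 UMIs, or above 15% of UMIs from mitochondrial genes. Doublets were scored by Scrublet in scanpy 1.11.5 (expected 8%) and removed at scores above 0.25 (122, 485 and 359 cells in Sham, D2 and D7). This limit was set after the scores were seen, since the automatic one marked 0 Sham cells. Counts were scaled to 10000 and log-transformed, and 2000 variable genes without the 10 contractile genes, 30 principal components, 15 neighbours and Leiden resolution 1 gave clusters over all libraries together. The mural cluster was clustered again (1000 variable genes, 15 components, resolution 0.5). Clusters were named from marker lists by a rule set after the clusters were seen. The genes described and all lists were chosen with earlier results of these data known. Python 3.11.15, numpy 2.4.6, scipy 1.17.1, scikit-learn 1.9.0, leidenalg 0.10.2 and matplotlib 3.10.9 were used.

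Class sums of UMIs in each library were expressed as CPM with exact Poisson intervals, ratios with exact conditional binomial intervals, and shares with Clopper-Pearson intervals. All are 95% intervals and cover counting error only. A log2 ratio adds 1 CPM to both levels. A gene counts as at least 2-fold different if (CPM + 1) differed by that much and the higher library had at least 50 CPM and 20 UMIs, in classes with at least 50 cells in both. Ratios against 0 use a floor of 3 UMIs. Shares of cells were compared after thinning to 1000 UMIs, leaving out shallower cells. Named are all 10 genes, the 8 genes with the most similar profile, and up to 4 genes of each list by size of change among those with at least 50 CPM in the higher library; other genes named were chosen after their values were seen. The calculations were tested on simulated class sums with Poisson error only. These leave out the clumping of UMIs in few cells, so they do not show how well the intervals cover the real data. The value of 1 gene that this rule names is not reported here.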

Additional observations from a re-analysis of the deposited data

Results flagged for a closer look

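The D7 to Sham ratios of Acta2 and Tagln differed between cell classes; with 1 library per group these differences between classes were not tested. In smooth muscle-like cells the D7 to Sham ratio was 0.899 for Acta2 (0.868 to 0.931) and 0.889 for Tagln (0.856 to 0.924), and both turned above 1 under other settings, so no direction is given there. In fibroblast-like cells it was 3.65 for Acta2 (3.23 to 4.13) and 3.64 for Tagln (3.27 to 4.07). In endothelial-like cells it was 8.03 for Acta2 (6.20 to 10.6), with 78.2% of the D7 UMIs in 5 cells, and 2.63 for Tagln (2.19 to 3.16).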

How the results depend on the processing

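Each group was 1 library, so the results carry no replicate error, and counting intervals understate the true error. No paired analysis was possible because no group had replicates. Settings without cluster 1, without subcluster 7 or with 1 subcluster alone, and all settings of the smooth muscle-like over pericyte-like comparison, were chosen after seeing the data. Of the main results under other settings, 59 values moved little and 14 moved further, which were as follows. With resolution 2, the median log2 ratio of the 10 genes in fibroblast-like cells, D7 over Sham, was 1.82 in place of 0.22, and co-detection of Acta2 and Tagln at D7 was 2.30% in place of 1.05%. With a minimum of 500 genes and 1000 UMIs, the pericyte-like median was -0.89 in place of -0.05 and co-detection in Sham fibroblast-like cells 0.155% in place of 1.06%. With mural resolution 1, the smooth muscle-like median was -0.0614 in place of -0.31, and smooth muscle-like over pericyte-like 2.29 in place of 1.99. The fibroblast-like D7 median was 0.0567 with a free RNA profile subtracted, -0.13 as a mean over cells and 0.0409 with a pseudocount of 10 CPM. As a mean over cells, the fibroblast-like D2 median was 0.34 in place of 0.76, and smooth muscle-like over pericyte-like 2.20. Thinned to 2000 UMIs, co-detection was 0.271% in Sham and 2.36% at D7, so the equal shares at 1000 UMIs did not hold at that depth; without cluster 1 it was 0.117% in Sham. The causes were not tested. Of values for single genes and counts, 371 moved little and 145 further.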
